A study of Mus musculus with 16 samples.

Results

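The 8 genes described here, Slc2a1, Slc2a3, Slc2a4, Slc2a6, Slc2a8, Slc2a9, Slc2a10 and Slc2a12, encode facilitative sugar transporters of the Slc2a family and were taken by symbol from a read-count table of 19799 genes. All 8 passed the filter on low counts and were among the 16245 genes tested. RNA was sequenced from 16 libraries of the mouse cell line pmi28, whose myoblasts fuse into multinucleated myotubes, in 6 groups. Induced myotubes of the line with inducible msx2 and GFP (3 libraries) and of the line with inducible GFP alone (3 libraries) had been isolated on a mesh and given doxycycline at 2 µg/ml for 24 h in growth medium with 20% fetal bovine serum. Uninduced myotubes of the msx2 line (3 libraries) and of the GFP line (3 libraries) were isolated in the same way, after 3 days in 10% horse serum and a culture with AraC, which blocks DNA synthesis. The induced myotubes of both lines had also had 3 days in 10% horse serum. Uninduced myoblasts of the msx2 line (2 libraries) and of the GFP line (2 libraries) were the undifferentiated cells, with 20% growth serum and no days in horse serum. The medium of the uninduced myotubes is not stated, so induction compares doxycycline and possibly medium together, and the GFP line received the same treatment. Whether a line is a single clone is not given in the sources used here.

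Total counts per library lay between 19784873 and 33092666. Msx2, the homeobox gene that was induced, had 1344, 1462 and 1514 CPM (read counts scaled to 1e+06 per library) in induced msx2-line myotubes, against 12.1, 15.9 and 13.2 CPM in uninduced myotubes of that line and at most 1.59 CPM in any GFP-line library. The summed level of 7 myotube markers was 9156 to 11580 CPM in induced and 18700 to 20930 CPM in uninduced msx2-line myotubes, 885 to 892.8 CPM in msx2-line myoblasts, 19770 to 22590 CPM in induced and 20690 to 23000 CPM in uninduced GFP-line myotubes, and 318 to 335.1 CPM in GFP-line myoblasts. The lower sum in induced msx2-line myotubes lay in 4 of the 7 markers, Myh3, Acta1, Myh8 and Myog, which had no overlap with the uninduced libraries, while Ckm (364, 328 and 520 CPM in induced and 330, 296 and 393 CPM in uninduced libraries), Tmem8c and Tnnt3 overlapped. Library 2 of the induced and library 2 of the uninduced msx2-line myotubes stood apart in a sum of 5 fibroblast markers, mostly Col1a1. That sum was 302, 894 and 424 CPM in induced and 251, 736 and 449 CPM in uninduced msx2-line myotubes. Values without both of these libraries are given beside the results that they moved most. The 2 GFP-line myoblast libraries differed far less from each other than any other replicate pair, with a chi-square per degree of freedom of 1.95 against 10.5 to 31.3 elsewhere. The labels do not tie replicates to separate cultures, and the p-values then measure only the spread between these libraries, which may be technical.

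Transporters of this family carry sugars across a membrane down their concentration gradient. In resting skeletal muscle GLUT1, the product of Slc2a1, gives the basal uptake of glucose. GLUT4, the product of Slc2a4, is held in vesicles inside the fibre and moves to the surface on insulin or contraction, and its amount is low in myoblasts and high in adult muscle. Other members work on internal membranes or carry urate or dehydroascorbate.

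Promoter windows are shown for the 2 members that moved in opposite directions on msx2 induction and had a window in the RefSeq table (build GRCm38.p6), which held 6 of the 8 members. Slc2a3 and Slc2a4 were the others. Each window runs from 250 bases before to 50 bases after the annotated start, 5′ to 3′ along the gene. The read counts were made on another build, mm9, and no coordinate was carried between the builds. For Slc2a6, at chr2:27027949-27028248 on the minus strand, capitals mark CANNTG, the E-box read by myogenic basic helix-loop-helix factors. For Slc2a1, at chr4:119108495-119108794 on the plus strand, capitals mark GGGCGG, the GC box read by Sp1, here on the opposite strand.
Slc2a6: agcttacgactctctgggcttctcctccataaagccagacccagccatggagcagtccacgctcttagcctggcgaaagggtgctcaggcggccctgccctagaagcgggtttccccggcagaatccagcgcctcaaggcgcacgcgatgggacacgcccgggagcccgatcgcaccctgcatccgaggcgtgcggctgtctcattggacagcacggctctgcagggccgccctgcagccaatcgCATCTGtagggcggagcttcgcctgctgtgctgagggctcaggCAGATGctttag
Slc2a1: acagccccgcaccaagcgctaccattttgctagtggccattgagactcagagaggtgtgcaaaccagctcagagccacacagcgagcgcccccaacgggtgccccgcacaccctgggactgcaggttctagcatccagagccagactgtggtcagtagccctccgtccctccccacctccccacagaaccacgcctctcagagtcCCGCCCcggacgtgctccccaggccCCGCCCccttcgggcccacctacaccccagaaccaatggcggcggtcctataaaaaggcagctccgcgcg
Both strands were searched for the E-box and the GC box, spelled out above, and for the homeodomain core TAATTG. The E-box letters read the same on either strand, and no match overlapped with another. The Slc2a6 window held an E-box with its first base at positions -5 and 39 from the start, and also a GC box at -23 on the opposite strand and at 4. The Slc2a1 window held a GC box at -45 and -20 and no E-box. The Slc2a8 window held 1 E-box, the Slc2a9 window 2 E-boxes and the Slc2a10 window 2 GC boxes. The Slc2a12 window held neither motif. None of these last members passed in the msx2 induction. The homeodomain core was in none of the 6 windows. Of all 32851 windows in the table, 72.3% held an E-box, 35.7% a GC box and 8% the homeodomain core. A match describes these letters only. GC content was 64.7% in the Slc2a6 window and 65.3% in the Slc2a1 window, with 22 and 18 CpG sites.

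Induction in the msx2 line compares formed myotubes with and without 24 h of doxycycline, which induced msx2 and GFP, possibly in a different medium. Slc2a4 rose 7.24-fold and Slc2a1 rose 1.78-fold by mean CPM, while Slc2a6 fell to 0.119 of its uninduced level. The other 5 genes, Slc2a3, Slc2a8, Slc2a9, Slc2a10 and Slc2a12, did not pass the test. The 3 of 8 that passed an adjusted p of 0.05 (edgeR quasi-likelihood test) stand beside 32.5% of all genes tested (16.2% higher and 16.3% lower), so the number of members called is near the background. In bulk RNA, fewer cells of a type and less RNA per cell cannot be told apart.

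Slc2a4 encodes GLUT4, the insulin-regulated transporter of muscle and fat. It had 35.3, 30.5 and 33.4 CPM in induced msx2-line myotubes and 5.69, 3.63 and 4.39 CPM in uninduced ones. It had 6.66, 5.21 and 5.35 CPM in induced and 5.92, 5.57 and 6.21 CPM in uninduced GFP-line myotubes. Every induced msx2-line library lay far above all 13 other libraries, and the GFP-line groups overlapped. In the msx2 line the log2 fold change was 2.87 ± 0.14 (SE; adjusted p = 1.19e-09, edgeR quasi-likelihood test), and 85 of the 16245 genes had a larger change in either direction. Adipocytes also make GLUT4, and their part in the rise of Slc2a4 was not tested. A sum of 5 adipocyte markers was at most 1.86 CPM in induced and at most 1.81 CPM in uninduced msx2-line myotubes, and Adipoq had at most 0.285 CPM in the induced libraries.

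Slc2a6 encodes GLUT6, found on internal membranes including lysosomes. It had 2.66, 2.60 and 3.20 CPM in induced msx2-line myotubes, from 63, 66 and 90 reads, against 21.7, 27.9 and 21.7 CPM in uninduced ones, from 434, 784 and 698 reads. It had 33.9, 34.4 and 18.8 CPM in induced and 29.7, 32.4 and 15.8 CPM in uninduced GFP-line myotubes. The msx2-line groups were separated widely, and library 3 was the low one in both GFP-line groups. The log2 fold change in the msx2 line was -3.07 ± 0.31 (SE; adjusted p = 5.37e-06, edgeR quasi-likelihood test), an 8.42-fold lower mean, and 55 genes had a larger change. Myoblasts of that line had 1.43 and 1.81 CPM, below all 3 induced libraries, a difference that was not tested. In the same induced libraries 4 of 7 myotube markers were lower and 3 overlapped, as given above, and their part in the fall of Slc2a6 was not tested.

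Slc2a1 encodes GLUT1, the widely expressed basal glucose transporter. It had 132, 158 and 114 CPM in induced msx2-line myotubes and 60.9, 101.4 and 64.6 CPM in uninduced ones. It had 56.8, 71.3 and 58.8 CPM in induced and 59.2, 69.7 and 59.8 CPM in uninduced GFP-line myotubes. All induced msx2-line libraries were above all uninduced ones, with the smallest gap between library 3 of the first and library 2 of the second. The log2 fold change was 0.83 ± 0.17 (SE; adjusted p = 0.00242, edgeR quasi-likelihood test). Library 2 was the highest in both msx2-line myotube groups, where the fibroblast marker sum was also highest. A sum of 5 markers of myoblasts or cycling cells was 32.2, 51.9 and 23.3 CPM in induced and 32.8, 29.8 and 24.0 CPM in uninduced msx2-line myotubes, against 922 to 935 CPM in myoblasts, with library 2 the high one among the induced. Of these lists, Pdgfrb (45.7, 62.4 and 44.1 CPM in induced and 12.0, 20.0 and 15.9 CPM in uninduced libraries) and Pax7 (10.6, 9.69 and 7.47 CPM in induced and 3.69, 3.73 and 2.49 CPM in uninduced libraries) were higher in every induced library, and Myf5 was lower in every one. The part of these markers in the change of Slc2a1 was not tested. Without both libraries the change was 0.97 ± 0.11 (adjusted p = 1.27e-05).

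For each of the 5 members that did not pass, induced and uninduced libraries overlapped. Slc2a9 encodes GLUT9, a urate transporter, and had 26.0, 26.8 and 29.5 CPM in induced and 26.7, 25.0 and 30.1 CPM in uninduced msx2-line myotubes. Slc2a12 encodes GLUT12, another transporter of muscle and fat, and had 28.0, 26.6 and 31.4 CPM in induced and 28.8, 25.6 and 29.6 CPM in uninduced ones. Their log2 fold changes were 0.01 ± 0.08 and 0.04 ± 0.08 (SE; adjusted p = 0.963 and 0.77, edgeR quasi-likelihood test). The standard errors of these 2 genes were the smallest of the 8.

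Slc2a8 encodes GLUT8, an intracellular transporter. It had 8.11, 6.89 and 7.12 CPM in induced and 6.74, 7.50 and 6.88 CPM in uninduced msx2-line myotubes. Slc2a10 encodes GLUT10, linked to dehydroascorbate transport and mutated in arterial tortuosity syndrome in people, and had 3.93, 5.04 and 4.09 CPM in induced and 4.89, 4.44 and 5.73 CPM in uninduced ones. Slc2a3 encodes GLUT3, the high-affinity transporter best known from neurons. It had 3.51, 5.83 and 3.59 CPM in induced and 2.95, 5.72 and 2.90 CPM in uninduced msx2-line myotubes. No induced group of these 3 genes stood clear of its uninduced group. Their log2 fold changes were 0.06 ± 0.12 for Slc2a8, -0.21 ± 0.16 for Slc2a10 and 0.15 ± 0.27 for Slc2a3 (SE; adjusted p = 0.72, 0.361 and 0.713, edgeR quasi-likelihood test). For Slc2a3 library 2 was again the high one in both groups, and without both libraries the change was 0.29 ± 0.22 (adjusted p = 0.353). That of Slc2a10 was then -0.41 ± 0.19 (adjusted p = 0.119).

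**Figure D1:**
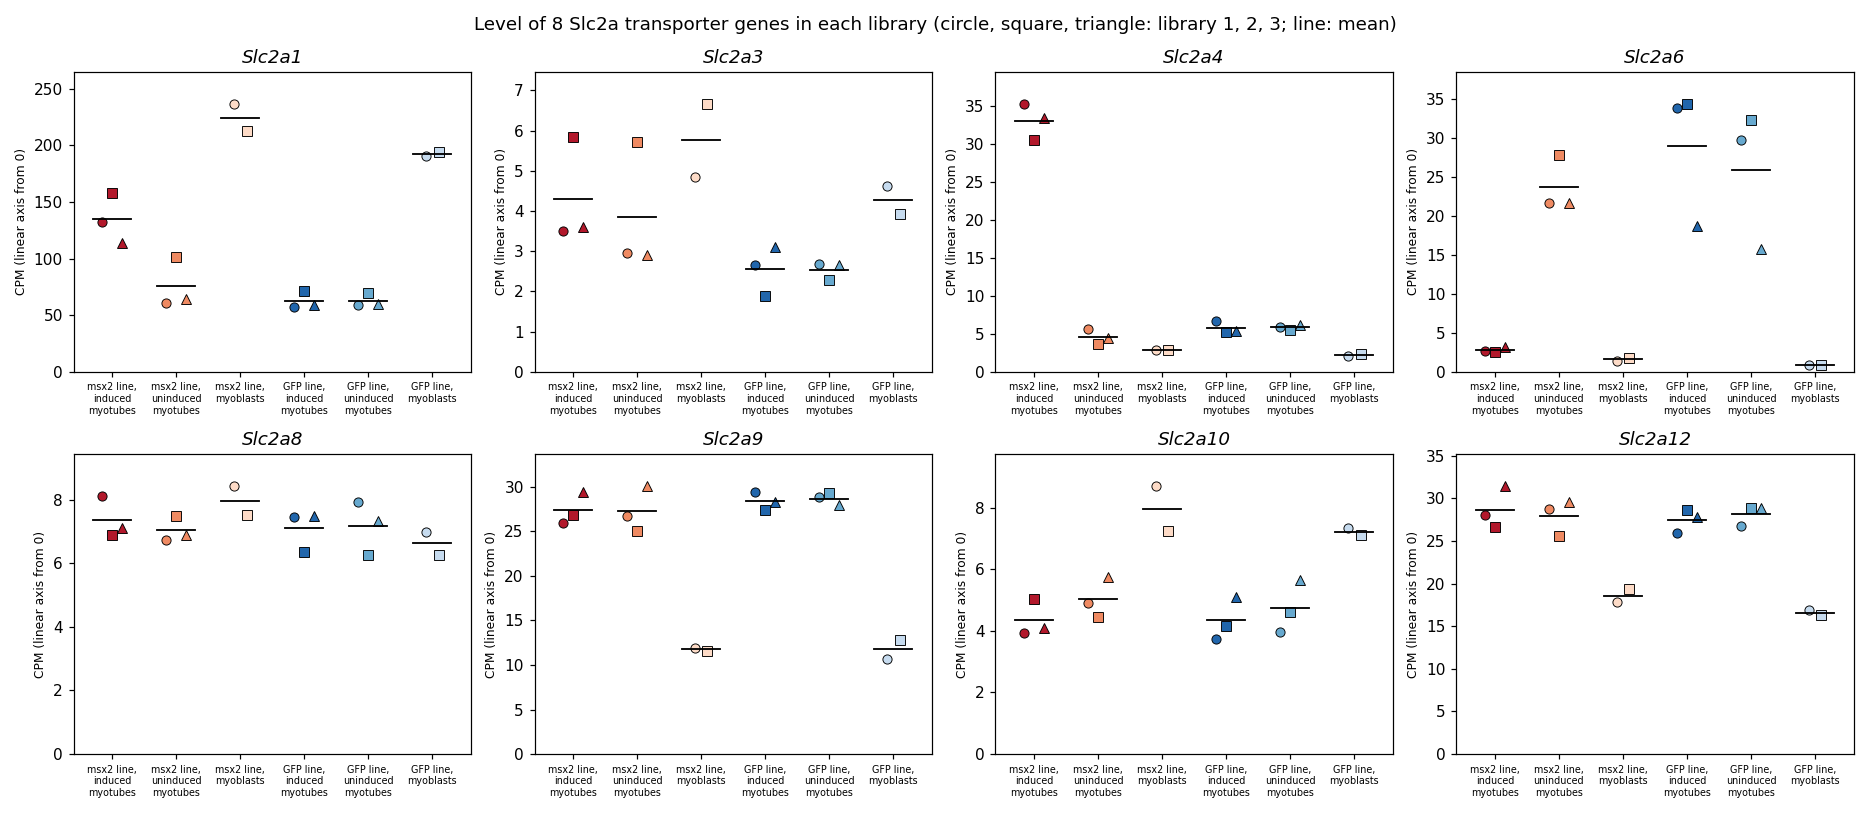
Level of each of the 8 Slc2a genes in every library (CPM, linear axes from 0), in 6 groups, with a horizontal line at the group mean and circle, square and triangle for libraries 1, 2 and 3. Slc2a4 is high in the 3 induced msx2-line libraries (30.5 to 35.3 CPM) and below 7 CPM everywhere else, and Slc2a6 is high in every myotube group except that one.

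Induction in the GFP line, given the same doxycycline and medium, gave no call among the 8 genes, with an adjusted p of 1 for each (edgeR quasi-likelihood test). None of them had an unadjusted p under 0.05 either, and DESeq2 called none. The log2 fold changes were -0.04 ± 0.14 for Slc2a4, 0.17 ± 0.25 for Slc2a6 and -0.01 ± 0.18 for Slc2a1 (SE). Across all genes 0.0308% passed, which is 5 genes, with 164 at an unadjusted p under 0.05, 10 by DESeq2 and 9 with the replicate number as a block. The induction of the msx2 line minus that of the GFP line passed for the same 3 genes. It was 2.91 ± 0.20 for Slc2a4 (adjusted p = 2.39e-07), -3.24 ± 0.40 for Slc2a6 (adjusted p = 9.61e-05) and 0.85 ± 0.25 for Slc2a1 (adjusted p = 0.0316), beside 17.9% of all genes (9.15% higher and 8.78% lower). The difference for Slc2a1 lay close to the threshold: leaving out any 1 of 7 myotube libraries gave an adjusted p of 0.0551 to 0.0775, and fitting the compared groups alone gave 0.0555. Those 7 were libraries 1 and 3 of the uninduced and 1 and 2 of the induced msx2-line myotubes, library 2 of the uninduced and libraries 1 and 3 of the induced GFP-line myotubes. Without both msx2-line libraries numbered 2, the difference for Slc2a1 was 0.99 ± 0.14 (adjusted p = 0.000225).

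**Figure D2:**
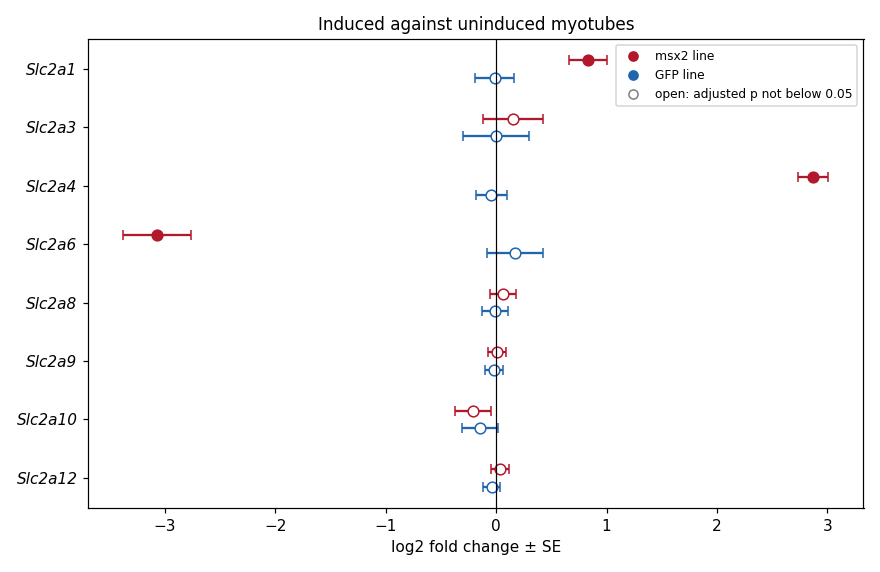
Log2 fold change (± SE) of induced against uninduced myotubes for the 8 genes in the msx2 line (red) and the GFP line (blue), with filled points for an adjusted p below 0.05. The filled points are Slc2a1 (0.83), Slc2a4 (2.87) and Slc2a6 (-3.07) of the msx2 line, and every GFP-line point is open.

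Set against each other per length (CPM divided by the summed exon length in kb), Slc2a1 was the most abundant of the 8 in all 6 groups and overlapped with no other member. Second place differed. It was held by Slc2a4 in induced msx2-line myotubes, at 11.8 ± 0.86 CPM per kb (SD, n = 3). It was held by Slc2a6 in uninduced msx2-line myotubes (11.1 ± 1.67), induced GFP-line myotubes (13.6 ± 4.15) and uninduced GFP-line myotubes (12.2 ± 4.15). In the myoblasts of both lines it was Slc2a12, at 4.46 ± 0.25 CPM per kb in the msx2 line and 3.99 ± 0.11 in the GFP line (SD, n = 2). Behind the leading pair in induced msx2-line myotubes, Slc2a12 (6.88 CPM per kb) and Slc2a9 (6.87) overlapped, Slc2a8 followed at 3.50, and Slc2a6, Slc2a10 and Slc2a3 (1.32, 1.23 and 1.09) overlapped with their neighbours. In uninduced msx2-line myotubes the order after Slc2a6 was Slc2a9 and Slc2a12, which overlapped, Slc2a8, and then Slc2a4, Slc2a10 and Slc2a3, each overlapping with the next. In the GFP line Slc2a4 was sixth of 8 in both myotube groups, and the lone overlap between neighbours was that of Slc2a8 and Slc2a9 in myoblasts.

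As a share of the summed CPM per kb of the 8 genes, Slc2a1 made up 55.6% ± 4.94 in induced msx2-line myotubes, 41.4% ± 6.14 in uninduced ones (SD, n = 3) and 80.5% ± 1.25 in myoblasts (SD, n = 2). Slc2a4 made up 16% ± 2.08, 3.04% ± 1.03 and 1.19% ± 0.09 of the sum in the same groups. Slc2a6 made up 1.8% ± 0.34, 20.1% ± 0.42 and 0.89% ± 0.20. In the GFP line the share of Slc2a6 was 25% ± 5.92 in induced myotubes, 22.6% ± 6.12 in uninduced ones and 0.543% ± 0.03 in myoblasts. The sum itself was 74.0 ± 5.57 CPM per kb in induced and 55.2 ± 7.78 in uninduced msx2-line myotubes, and 85.6 ± 5.12 in the myoblasts of that line. It was 53.7 ± 5.02 in induced and 52.9 ± 5.02 in uninduced GFP-line myotubes, and 73.5 ± 0.69 in GFP-line myoblasts. Shares are bound to add up, so a lower share of one gene follows in part from a higher share of another.

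**Figure D3:**
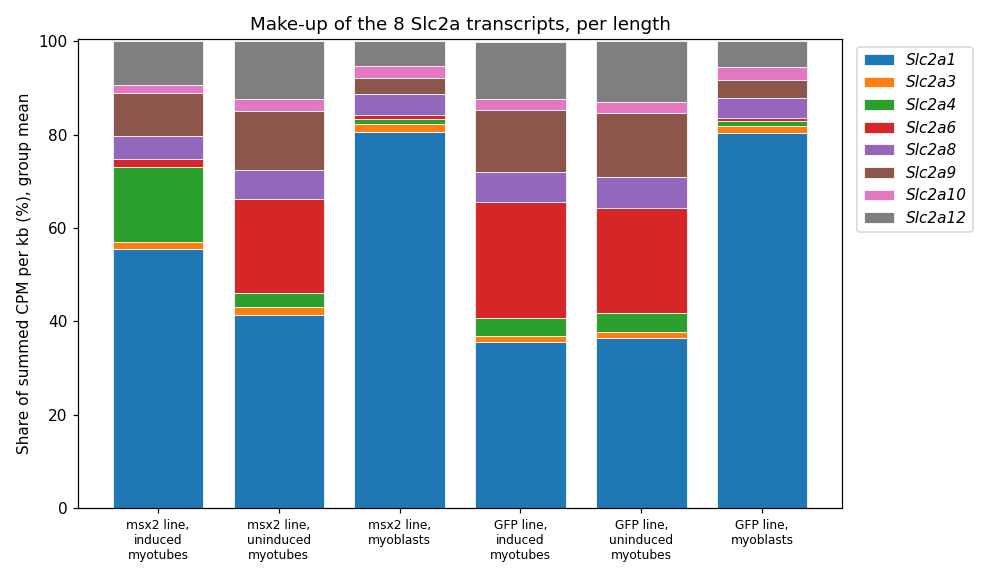
Mean share (%) of each gene in the summed CPM per kb of the 8 Slc2a genes, with 1 stacked bar for each of the 6 groups. Slc2a1 takes 80.5% and 80.4% in the myoblasts of the msx2 and GFP lines, Slc2a6 takes 20.1% to 25% in every myotube group except induced msx2-line myotubes, and Slc2a4 takes 16% in that group.

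Differentiation compares uninduced myotubes with myoblasts within a line, and it shares the uninduced myotubes with the induction comparisons. The myotubes had also been through horse serum, AraC and isolation on a mesh. Effects of these steps cannot be told apart from those of differentiation. In the msx2 line 4 members rose (Slc2a4, Slc2a6, Slc2a9, Slc2a12) and 2 fell (Slc2a1, Slc2a10), beside 79.8% of all genes (40.8% higher and 39.0% lower). In the GFP line the same 4 rose and 3 fell (Slc2a1, Slc2a3, Slc2a10), beside 77.7% of all genes (39.8% higher and 37.9% lower). Both counts are near the background. The median log2 fold change of the members was 0.21 in the msx2 line and 0.44 in the GFP line, beside 0.08 and 0.06 over all genes.

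The largest of these rises was that of Slc2a6. It had 21.7, 27.9 and 21.7 CPM in uninduced msx2-line myotubes against 1.43 and 1.81 CPM in myoblasts, and 29.7, 32.4 and 15.8 CPM in uninduced GFP-line myotubes against 0.886 and 0.821 CPM in myoblasts, the last from 19 and 18 reads. The log2 fold changes were 3.87 ± 0.40 in the msx2 line and 4.91 ± 0.45 in the GFP line (SE; adjusted p = 9.17e-07 and 2.96e-07, edgeR quasi-likelihood test), or 14.7-fold and 30.4-fold by mean CPM. Slc2a9 was at 26.7, 25.0 and 30.1 CPM in uninduced msx2-line myotubes and 11.9 and 11.6 CPM in myoblasts, and at 28.8, 29.3 and 28.0 CPM in uninduced GFP-line myotubes and 10.7 and 12.9 CPM in myoblasts. Its log2 fold changes were 1.21 ± 0.10 and 1.28 ± 0.10 (SE; adjusted p = 1.58e-08 and 9.97e-09). Slc2a12 rose less, with 28.8, 25.6 and 29.6 CPM against 17.8 and 19.3 CPM in the msx2 line and 26.8, 28.9 and 28.9 CPM against 16.9 and 16.3 CPM in the GFP line. No myotube library overlapped with a myoblast library for these 3 genes. Here and in the other comparisons, the share of all genes without overlap between groups was not counted.

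Slc2a4 had 5.69, 3.63 and 4.39 CPM in uninduced msx2-line myotubes and 2.81 and 2.88 CPM in myoblasts. It had 5.92, 5.57 and 6.21 CPM in uninduced GFP-line myotubes and 2.05 and 2.37 CPM in myoblasts. The rise was 0.67 ± 0.18 in the msx2 line and 1.41 ± 0.18 in the GFP line on the log2 scale (SE; adjusted p = 0.00291 and 3.79e-06, edgeR quasi-likelihood test). The difference between the lines, msx2 line minus GFP line, was -0.75 ± 0.26 and did not pass (adjusted p = 0.0891). Without library 1 of the uninduced msx2-line myotubes it was -0.92 and passed (adjusted p = 0.024), and without both msx2-line libraries numbered 2 it was -0.60 ± 0.24 (adjusted p = 0.121). The myotube level of Slc2a4 before induction was therefore within 3-fold of the myoblast level in both lines, by mean ratios of 1.61 and 2.67, and the induced msx2-line level lay above both.

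Slc2a1 was the main faller. Its level was 60.9, 101.4 and 64.6 CPM in uninduced msx2-line myotubes against 236 and 213 CPM in myoblasts, and 59.2, 69.7 and 59.8 CPM in uninduced GFP-line myotubes against 191 and 194 CPM in myoblasts. The log2 fold changes were -1.57 ± 0.19 and -1.61 ± 0.19 (SE; adjusted p = 4.8e-06 and 4.1e-06, edgeR quasi-likelihood test), and -1.83 ± 0.11 in the msx2 line without both libraries numbered 2. Induced msx2-line myotubes, with 114 to 158 CPM, lay between the uninduced myotubes and the myoblasts of that line, without overlap, though induced myotubes and myoblasts were not tested against each other. Slc2a10 had 4.89, 4.44 and 5.73 CPM in uninduced msx2-line myotubes against 8.69 and 7.24 CPM in myoblasts, and 3.95, 4.61 and 5.65 CPM in uninduced GFP-line myotubes against 7.32 and 7.12 CPM in myoblasts. It fell by 0.66 and 0.59 on the log2 scale (adjusted p = 0.0026 and 0.0063), and no myotube library reached a myoblast library.

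Slc2a3 had 2.95, 5.72 and 2.90 CPM in uninduced msx2-line myotubes against 4.86 and 6.66 CPM in myoblasts, and 2.68, 2.29 and 2.65 CPM in uninduced GFP-line myotubes against 4.62 and 3.92 CPM in myoblasts. In the msx2 line library 2 of the myotubes overlapped with the myoblasts. The log2 fold change there was -0.57 ± 0.29 (SE; adjusted p = 0.0851, edgeR quasi-likelihood test). Without both msx2-line myotube libraries numbered 2 it was -0.97 ± 0.21 and passed (adjusted p = 0.000599). In the GFP line it was -0.75 ± 0.32 (adjusted p = 0.0412), a call lost without any 1 of 6 GFP-line libraries (both myoblast libraries, all 3 uninduced myotube libraries and library 1 of the induced myotubes), with adjusted p between 0.0502 and 0.182. Slc2a8 did not pass in either line, with log2 fold changes of -0.18 ± 0.13 and 0.11 ± 0.13 (adjusted p = 0.217 and 0.446). Its level lay between 6.25 and 8.42 CPM in all 16 libraries, the narrowest range among the members relative to their level. None of the 8 genes passed the test of the difference between the 2 lines' differentiation, beside 8.28% of all genes. Slc2a4 alone had an unadjusted p under 0.05 there (3956 genes in all), and DESeq2 called none of the 8 and 1885 genes.

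**Figure D4:**
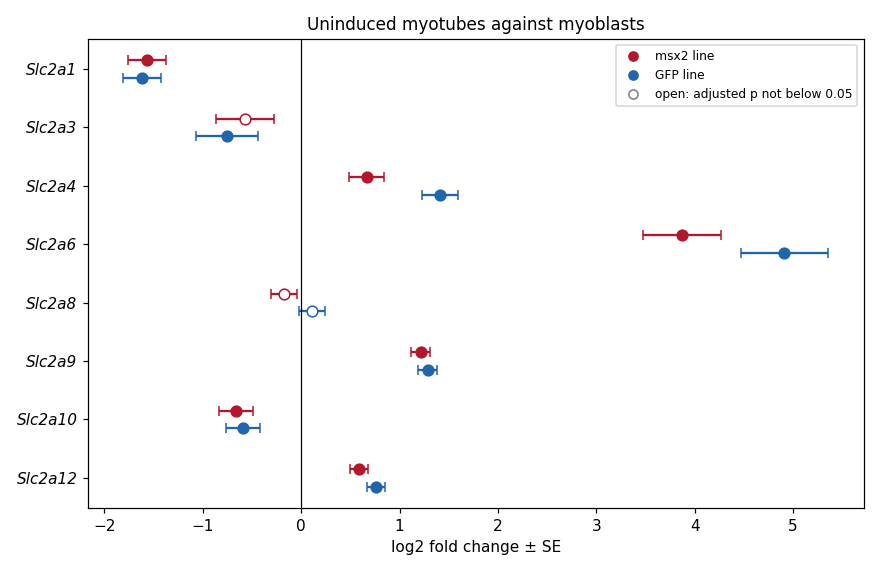
Log2 fold change (± SE) of uninduced myotubes against myoblasts for the 8 genes in the msx2 line and the GFP line, with filled points for an adjusted p below 0.05. Slc2a6, Slc2a9, Slc2a12 and Slc2a4 lie above 0 and Slc2a1 and Slc2a10 below 0 in both lines, and Slc2a8 is open in both.

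The lines were also compared at each stage. In induced myotubes, which are the same libraries as in the induction, 3 of 8 genes passed, beside 35.3% of all genes: Slc2a4 at 2.53 ± 0.14, Slc2a1 at 1.11 ± 0.18 and Slc2a6 at -3.36 ± 0.31 on the log2 scale, msx2 line over GFP line (SE; adjusted p = 2.81e-09, 0.000255 and 2.19e-06, edgeR quasi-likelihood test). Slc2a3 was just outside at 0.76 ± 0.29 (adjusted p = 0.0511), and without both msx2-line libraries numbered 2 it was 0.50 ± 0.20 (adjusted p = 0.0701). It passed by DESeq2 (adjusted p = 0.038) and in edgeR without any 1 of 6 libraries (each of the uninduced msx2-line myotubes, libraries 1 and 3 of the induced msx2-line and library 3 of the induced GFP-line myotubes), with adjusted p between 0.0141 and 0.0467. In uninduced myotubes none of the 8 passed, beside 0.0616% of all genes, which is 10 genes (173 with the replicate number as a block). There 2 of the 8 had an unadjusted p under 0.05, of 1584 genes in all, and DESeq2 called none of the 8 and 154 genes. The largest values of the 8 were 0.61 ± 0.28 for Slc2a3 (adjusted p = 0.502) and -0.39 ± 0.14 for Slc2a4 (adjusted p = 0.357), which were also those 2. Without both msx2-line libraries numbered 2 these were 0.21 ± 0.21 for Slc2a3 (adjusted p = 0.742) and -0.24 ± 0.14 for Slc2a4 (adjusted p = 0.532), no larger in size than -0.24 ± 0.31 for Slc2a6. Slc2a1 was then at 0.003 ± 0.10, against 0.27 ± 0.18 with all libraries (adjusted p = 0.997 and 0.677). In myoblasts none of the 8 passed, beside 16.3% of all genes. None had an unadjusted p under 0.05 (5087 genes in all), and DESeq2 called none of the 8 and 3006 genes.

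The other Slc2a genes in the table, Slc2a2, Slc2a5, Slc2a7 and Slc2a13, were tested as well. In the inductions 0 of 4 passed, beside 32.5% of all genes in the msx2 line and 0.0308% in the GFP line. For differentiation, 1 of 4 rose and 0 fell in the msx2 line, beside 79.8% of all genes called. In the GFP line 1 of 4 rose and 2 fell, beside 77.7% of all genes called. Slc2a13 encodes the proton-coupled myo-inositol transporter. Its change was -0.25 ± 0.12 in the msx2 induction (SE; adjusted p = 0.13, edgeR quasi-likelihood test) and, in differentiation, -0.24 ± 0.13 in the msx2 line (adjusted p = 0.111) and -0.54 ± 0.13 in the GFP line (adjusted p = 0.00177). Slc2a7 had -0.23 ± 0.30 in the msx2 line (adjusted p = 0.484) and -1.04 ± 0.30 in the GFP line (adjusted p = 0.00449) in differentiation. Slc2a2, the liver and islet transporter, passed as higher in differentiation in both lines (adjusted p = 0.00274 and 0.00286), at a mean of 0.346 CPM in uninduced msx2-line myotubes and 0.365 CPM in uninduced GFP-line myotubes. No fold is given for it, since each myoblast library had 0 or 1 read. Slc2a5, a fructose transporter, did not pass in either line.

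Around the transporters, 5 lists of related genes were counted in the msx2 induction, where 16.2% of all genes rose and 16.3% fell. Of 30 genes of GLUT4 vesicle traffic and insulin signalling, 9 rose, 10 fell and 11 did not pass, with a median log2 fold change of 0.10 beside -0.01 over all genes. The risers with the smallest p were Aspscr1 (TUG, which tethers GLUT4 vesicles; 53.5 CPM in induced and 33.9 CPM in uninduced myotubes), Doc2b (a calcium sensor of vesicle fusion; 7.03 and 2.92 CPM) and Irs2 (an insulin receptor substrate; 12.4 and 5.57 CPM). Their log2 fold changes were 0.66 ± 0.08, 1.26 ± 0.17 and 1.13 ± 0.17 (SE). Among the fallers were Pik3cb (a catalytic subunit of phosphoinositide 3-kinase; 22.8 and 63.2 CPM) and Tbc1d1 (a Rab GTPase-activating protein that holds GLUT4 back; 175 and 242 CPM), at -1.47 ± 0.11 and -0.47 ± 0.05. The list thus moved in both directions.

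Of 29 regulators of Slc2a transcription and turnover, 14 rose, 5 fell and 10 did not pass, with a median of 0.25 beside -0.01 over all genes. Nr4a1 (an orphan nuclear receptor that raises Slc2a4 in muscle) had 66.7 ± 4.63 CPM in induced and 14.6 ± 3.29 CPM in uninduced msx2-line myotubes, Mlxipl (the glucose-responsive factor ChREBP) had 5.40 ± 1.07 and 1.15 ± 0.33 CPM, and Cebpb had 22.0 ± 1.09 and 8.47 ± 0.40 CPM (SD, n = 3). Mef2c, a muscle factor that binds the Slc2a4 promoter, fell, with 468 ± 83.9 CPM in induced and 1163 ± 106 CPM in uninduced myotubes. The catalytic AMPK subunit gene Prkaa1 (73.4 and 124 CPM) and Nfkb1 (40.0 and 54.5 CPM) fell too. Of the other Mef2 genes listed, Mef2a rose by 0.41 ± 0.09 on the log2 scale (SE, adjusted p = 0.0018, edgeR quasi-likelihood test). Mef2d, at 0.12 ± 0.08, did not pass. The part of any regulator in the changes of the transporters was not tested. Txnip and Arrdc4, arrestins that draw glucose transporters from the cell surface, are part of the same list. Txnip had 60.8, 60.5 and 65.0 CPM in induced and 40.6, 52.1 and 42.8 CPM in uninduced libraries, and Arrdc4 had 15.2, 15.7 and 14.3 CPM in induced and 6.44, 11.1 and 9.22 CPM in uninduced libraries. Both rose, by 0.46 ± 0.10 and 0.74 on the log2 scale (adjusted p = 0.00188 and 0.0028, edgeR quasi-likelihood test).

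Of 15 genes of the first enzymes of sugar use, 9 rose, 2 fell and 4 did not pass, with a median of 0.43 beside -0.01 over all genes. Hk2, the hexokinase of muscle that phosphorylates glucose on entry, had 189.5 ± 8.82 CPM in induced and 93.4 ± 6.52 CPM in uninduced msx2-line myotubes (SD, n = 3), a log2 fold change of 1.02 ± 0.07 (SE; adjusted p = 2.08e-08). Galk1, galactokinase, rose by 0.65 ± 0.08. The fallers were Ugp2, which makes UDP-glucose for glycogen, and Galk2, at -0.50 ± 0.09 and -0.29 ± 0.07. Of 14 other sugar transporters 3 rose and none fell: Slc45a4 (46.5 CPM in induced and 22.2 CPM in uninduced myotubes), Slc37a3 (32.7 and 24.0 CPM) and Slc5a10 (0.861 and 0.338 CPM). Of 9 genes of ascorbate and urate handling none rose and 3 fell. These were Abcg2, a urate exporter (66.4 and 118 CPM), Slc23a2, an ascorbate transporter (111 and 153 CPM), and Xdh, the xanthine oxidase that makes urate (4.46 and 6.29 CPM). In the GFP induction 0 genes of each of these lists passed. The difference between the inductions, where 9.15% of all genes were higher and 8.78% lower, passed, higher and lower, for 6 and 7 genes of the traffic list, 11 and 3 regulators, 7 and 2 enzymes, 2 and 0 other sugar transporters and 0 and 2 genes of ascorbate and urate handling.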

How the data were processed

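RNA was sequenced from 16 libraries made with a stranded mRNA kit, per the labels' protocols. The deposited values are raw read counts per gene. Per the submitters' processing notes, the tools were edgeR 3.6.8, SAMtools 0.1.19 and TopHat2 2.0.11, on mm9. How reads were assigned to genes, and with which strand setting, is not given in the sources used here. The 67 entries that name no gene held 0.0601 to 0.0878% of counts and stayed out.

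All 16 libraries were fitted together in edgeR 4.0.16 (limma 3.58.1, R 4.3.3), with a coefficient per group, after filterByExpr (minimum count 10) and TMM scaling. Robust quasi-likelihood tests were two-sided, with Benjamini-Hochberg adjustment over 16245 genes in each of 9 comparisons and a threshold of 0.05. CPM use the TMM-scaled library size, and exon lengths and GC content come from a GRCm38 annotation. Totals of 19784873 to 33092666 counts put 18 or more reads behind every value of a member; CPM carry counting error and replicate spread.

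The members, the lists, the tests and the alternatives were chosen with earlier results of these data known. All members were named, and of each related list up to 3 risers and 3 fallers by adjusted p in the msx2 induction. Txnip, Arrdc4, Mef2a, Mef2d, the other Slc2a genes and single marker genes were named after their values were seen. Some list genes were not analysed here, and some that the rule names are not reported. Replicate numbers come from the labels. Same-numbered libraries deviated together in both inductions, with correlations of 0.207 to 0.508 in the msx2 line and 0.359 to 0.453 in the GFP line. Between lines these were 0.177 to 0.288 in uninduced and 0.0912 to 0.247 in induced myotubes. The main fit used groups alone, so its tests were unpaired, and a replicate block was an alternative. The block changed no member's call in the inductions or in uninduced myotubes between lines. In induced myotubes between lines it added Slc2a3 (adjusted p = 0.0477, edgeR quasi-likelihood test). The alternatives were scaling by upper quartile or RLE, no filter, at least 5 CPM in 3 libraries, a replicate block without and with a GC offset, the compared groups alone, DESeq2 1.42.0, each library left out, and, added after seeing the data, both msx2-line myotube libraries numbered 2 left out.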

Additional observations from a re-analysis of the deposited data

Results flagged for a closer look

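The effect of induction differed between the msx2 line and the GFP line for 3 transporter genes by the test of the difference itself (an interaction term in the edgeR quasi-likelihood fit). The difference, msx2 line minus GFP line on the log2 scale, was 2.91 for Slc2a4, -3.24 for Slc2a6 and 0.85 for Slc2a1. That for Slc2a1 lay close to the threshold (adjusted p = 0.0316, edgeR quasi-likelihood test) and was lost in some alternatives, as given above. For each of the 3 genes all 3 induced msx2-line libraries lay on one side of every uninduced library of that line, and the GFP-line groups overlapped. These genes were chosen by the test on the same libraries. The share of all genes that separate in this way was not counted.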

How the results depend on the processing

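In the msx2 induction, Slc2a4, Slc2a6 and Slc2a1 kept their direction and their call under every alternative, at 2.71 to 3.04, -3.32 to -2.87 and 0.70 to 1.10 on the log2 scale, with adjusted p of at most 1.62e-05, 0.000395 and 0.0289. No result changed direction past the threshold. In the GFP induction (5 genes) the count was 9 with the replicate block, 11 with block and GC offset, 3 with the compared groups alone, 10 by DESeq2, and 3 to 7 with a library left out. For uninduced myotubes between lines (10 genes) it was 20 without a filter, 173 with the block, 230 with block and GC offset, 1 with the compared groups alone, 154 by DESeq2, 5 without both libraries numbered 2, and 2 to 28 with a library left out. In the differentiation difference the block gave 2264 genes against 1345 (439 to 1642 with a library left out) and 1 member (Slc2a4, adjusted p = 0.044; 0 to 1 with a library left out), although numbers do not pair these libraries. For induced myotubes between lines block and GC offset called 5 members, against 3 in the main fit, where 5740 genes passed. Over the alternatives other than leaving 1 library out, 4929 to 6940 genes passed there. In myoblasts between lines the compared groups alone gave 5173 genes against 2652 (764 to 2961 with a library left out) and 2 members (Slc2a1 at 0.14, adjusted p = 0.0419, and Slc2a6 at 0.84, adjusted p = 0.0444). Slc2a3 was lost with the block in GFP-line differentiation (adjusted p = 0.0553, edgeR quasi-likelihood test) and gained in induced myotubes between lines (adjusted p = 0.0477). Apart from these and Slc2a4 in the differentiation difference, the block alone changed no member call. For these counts the cause was not tested. Upper-quartile scaling moved the median log2 fold change of all genes to 0.29 in msx2-line and 0.20 in GFP-line differentiation, from 0.08 and 0.06. Members called there kept their direction, and the call of Slc2a3 in the GFP line was lost (adjusted p = 0.102).

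The median log2 fold change of all genes in the msx2 induction over 10 bins of GC content ran from -0.13 in the lowest bin to 0.18 in the highest, and with block and GC offset Slc2a1 was 0.71, Slc2a4 2.71 and Slc2a6 -3.32. Slc2a6 in myoblasts rests on 18 to 44 reads a library and Slc2a3 on 45 to 162, which limits their precision, as does the spread between replicates. Transcript levels say nothing of transporter protein or glucose uptake.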

Other observations

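The genes whose levels were most like each member's are given as a description over libraries that fall into separate groups, so that any gene with the same group levels scores high. Compared were 13433 tested genes other than the members, with a mean of at least 1 CPM. Genes with Gm, Rik or LOC symbols were left out. Over the 12 myotube libraries the closest to Slc2a4 were Cmip (r = 0.991), Ivd (0.989), an enzyme of leucine breakdown, and Idua (0.987), a lysosomal enzyme. The closest to Slc2a6 were Etv1 (0.99), Syne1 (0.985) and Bex1 (0.985), and to Slc2a1 they were C3ar1 (0.995), Slc48a1 (0.993), a haem transporter, and Bdkrb1 (0.985). Over all 16 libraries they were Pde2a (0.986), Matk (0.984) and Asb10 (0.979) for Slc2a4, Arl6ip5 (0.991), C1galt1c1 (0.99) and Klf5 (0.986) for Slc2a6, and Bdkrb1 (0.988), Wisp1 (0.988) and Rasa3 (0.987) for Slc2a1. For Slc2a9 they were Slco5a1, Luzp2 and Trim34a (0.992 each), for Slc2a12 Ankrd22 (0.987), BC117090 (0.984) and March10 (0.983), and for Slc2a10 Sfrp2 (0.962), Xpot (0.961) and Faxc (0.945). The best values were lower for Slc2a3 (Actg2, 0.885; Itga5, 0.883; Socs5, 0.88) and Slc2a8 (Pi4kb, 0.789; Dctn2, 0.78; Rpusd3, 0.73). Slc2a4 and Slc2a6 had r = -0.953 over the 12 myotube libraries and 0.004 over all 16.

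The lists of related genes also moved in differentiation, where about 40% of all genes passed in each direction (40.8% higher and 39.0% lower in the msx2 line, 39.8% and 37.9% in the GFP line). Higher and lower in uninduced myotubes than in myoblasts were 12 and 11 genes of GLUT4 traffic and insulin signalling in the msx2 line and 14 and 10 in the GFP line, 8 and 13 against 10 and 10 regulators, 7 and 6 against 9 and 5 enzymes of sugar use, 5 and 4 against 3 and 3 other sugar transporters, and 7 and 1 against 5 and 1 genes of ascorbate and urate handling. Mef2c had 1163 CPM in uninduced msx2-line myotubes and 7.98 CPM in myoblasts. A sum of 4 leukocyte markers was 14.9 to 15.8 CPM in induced and 9.28 to 11.2 CPM in uninduced msx2-line myotubes. Csf1r, a receptor of macrophages, had 6.17, 5.51 and 6.41 CPM in induced and 0.499, 0.818 and 0.841 CPM in uninduced msx2-line myotubes, and Cd68 had 1.65, 2.17 and 1.78 CPM in induced and 0.749, 1.56 and 1.37 CPM in uninduced ones, both without overlap. Ptprc (1.65, 1.42 and 1.17 CPM in induced and 1.75, 1.42 and 1.53 CPM in uninduced ones) and Emr1 (6.34, 6.03 and 5.55 CPM in induced and 6.29, 6.54 and 7.50 CPM in uninduced ones) overlapped.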
